A study of Mus musculus with 66 samples.

Results

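The report concerns 54 mouse genes of mitosis, from the cyclins and kinases of mitotic entry to the proteins of cytokinesis, in C2C12 cells, an established mouse myoblast line. Members were chosen by name, with earlier results of these data known. All 54 had rows among the 15777 genes with sense-strand polyadenylation (pA) sites in the 3'READS data, and 29 were listed among the 9999 genes of the RNA-seq data. They fell into 9 steps, namely mitotic entry (8 genes), mitotic kinases (3), the spindle checkpoint (5), anaphase onset (5), the chromosomal passenger complex (4), the kinetochore (6), the spindle (8), chromosome condensation (7) and cytokinesis (8).

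The study asked what the subunits of the Paf1 complex (Paf1C) do for gene expression and for the choice of pA sites. C2C12 myoblasts received 50 nM siRNA for 48 h, either control siRNA (siCtrl) or siRNA against Paf1 (siPaf1), Cdc73 (siCdc73) or Ski8 (siSki8), whose gene is listed as Wdr61. For each assay there were 2 libraries of siCtrl, siPaf1 and siCdc73, 1 per batch, and 1 siSki8 library, from batch 2, which makes 7 libraries. All groups share the same cell line and transfection, and 1 siRNA sequence served each target. RNA-seq counted reads in coding regions, and 3'READS counted reads that end in a poly(A) tail (PASS reads) at each pA site.

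Paf1C travels with RNA polymerase II and is known for its roles in elongation, histone H2B ubiquitylation and 3' end formation. Genes of G2 and mitosis are transcribed in a wave that peaks before division and is repressed in G1 and in resting cells. The DREAM complex holds them off through a short promoter element, the cell cycle genes homology region (CHR). MYB-MuvB and Foxm1 then bind at the same element to switch the genes on, often next to CCAAT boxes bound by NF-Y.

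The CHR was visible in the members' promoters, and a window of 30 bases is shown for 9 genes to which the results return. In RefSeq's promoter table (build GRCm38.p6, from 250 bases before to 50 bases after each start), 45 of the 54 members matched, with 48 promoters. The letters TTTGAA or TTCGAA, read on both strands, stood in 37 of the 48 member promoters (77.1%) and in 19.2% of all 32851 promoters. Within the last 150 bases of the window, the shares were 68.8% and 8.59%. The capitals below mark the CHR letters on the coding strand of each gene.

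Prc1: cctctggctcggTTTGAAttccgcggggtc

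Ect2: ccgtttaccggaTTTGAAacacactcacaa

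Cdk1: taccgcggcgagTTTGAAactgctggcact

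Ccnb2: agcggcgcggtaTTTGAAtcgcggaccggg

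Plk1: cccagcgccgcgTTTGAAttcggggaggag

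Cenpa: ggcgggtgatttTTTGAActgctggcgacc

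Kif4: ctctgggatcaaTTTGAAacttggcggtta

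Top2a: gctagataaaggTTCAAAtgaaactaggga

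Bub3: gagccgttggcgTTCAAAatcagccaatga

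The windows of Prc1 (chr7:80294434-80294463), Plk1 (chr7:122159453-122159482), Cenpa (chr5:30666890-30666919), Kif4 (chrX:100626072-100626101) and Bub3 (chr7:131560315-131560344) lie on the plus strand. Those of Ect2 (chr3:27153975-27154004), Cdk1 (chr10:69352910-69352939), Ccnb2 (chr9:70421533-70421562) and Top2a (chr11:99024195-99024224) lie on the minus strand. In Top2a and Bub3 the letters read TTTGAA on the other strand. The 11 matched members without them were Birc5, Ccnb1, Cenpe, Kif18a, Mad2l1, Melk, Ncaph, Nek2, Nuf2, Nusap1 and Pttg1, each of which was called lower after siPaf1 in at least 1 assay.

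CCAAT, the letters of the NF-Y box, stood on either strand in 75% of member promoters and in 37.4% of all promoters. TTCGCG, an E2F-type site, was found in 8.33% and 4.09%, but in the last 150 bases in 2.08% and 2.32%. TATAAA was found in 2.08% and 13.6%. These matches are descriptions of letters in the window and were not tested.

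**Figure D1:**
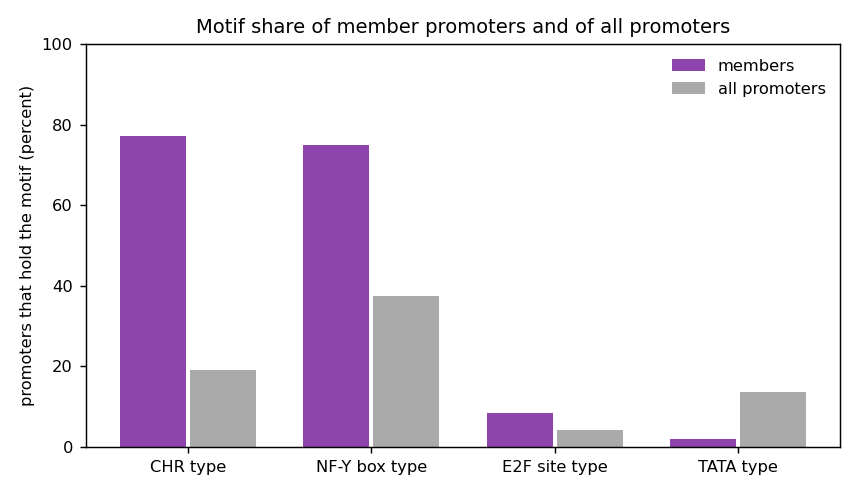
Share of promoters, in percent, that hold each type of motif on either strand, for the 48 member promoters (purple) and all 32851 promoters of the table (grey). The CHR letters stand in 77.1% of the member promoters and in 19.2% of all promoters.

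The siRNA targets were checked first. Levels are given as CPM, the reads of a gene relative to the normalised library total, batch 1 first. In RNA-seq, Paf1 was at 107 and 160 CPM in siCtrl and at 20.3 and 31.1 in siPaf1. Cdc73 was at 109 and 98.4 in siCtrl and at 14.2 and 22.0 in siCdc73. Wdr61 was at 129 in siCtrl of batch 2 and at 5.97 in siSki8. All 3 targets thus fell in the libraries labelled with them, while Paf1 rose after siCdc73 (log2 fold change 1.35, edgeR adjusted p = 2.88e-05 with batch in the model).

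The RNA-seq libraries held 2796693 to 8160386 gene-assigned reads, and the 3'READS libraries held 5302728 to 14340927 PASS reads at the listed sites. The 3'READS library of siPaf1 in batch 2 stood apart. It held 199 genes with at least 50 reads and more than 20 times the level of every other library, against 0 such genes in each of the other 13 libraries of both assays. Counts and calls of the members in 3'READS after siPaf1 are given with it, and again without it where that ends a call. All 7 myoblast markers were listed in 3'READS, and their sum was 2733 and 3049 CPM in siCtrl, 2597 and 2986 in siPaf1, 2023 and 2210 in siCdc73, and 2844 in siSki8. Des was at 525 to 1851 CPM and Myf5 at 7.95 to 36.8, while Myod1 was at or near 0 (0 to 8 reads). With batch in the model, the myoblast marker Cdh15 fell with the members, by 0.93 and by 1.32 on the log2 scale in RNA-seq (edgeR adjusted p = 0.00185 and 2.59e-05 after siPaf1 and siCdc73) and by 1.09 and by 1.87 in 3'READS. Ncam1 fell by 1.03 and by 1.45 in 3'READS, and Itga7 by 0.89 after siPaf1. Other myoblast markers rose in RNA-seq by the same fit. Des rose by 0.71 after siPaf1 (edgeR adjusted p = 0.0116) and Myf5 by 0.66 after siCdc73 (adjusted p = 0.0341). Vim was not called there after either knockdown. Summed over 6 listed myotube markers, the RNA-seq level was 45.4 and 175 in siCtrl and 59.8 and 297 in siPaf1. It was 39.6 and 271 in siCdc73 and 197 in siSki8. In 3'READS the sum was 151 and 291 in siCtrl, 233 and 507 in siPaf1, 103 and 326 in siCdc73, and 272 in siSki8. Both sums were higher in batch 2 than in batch 1 of siCtrl, siPaf1 and siCdc73. With batch in the model, Tnnt3 was called higher in RNA-seq after siPaf1 (1.78, edgeR adjusted p = 0.00062) and siCdc73 (1.08, adjusted p = 0.0289). Mylpf was called higher after siPaf1 (0.73, adjusted p = 0.0337), and the other listed myotube markers were not called in RNA-seq. By the same fit in 3'READS, Acta1 (1.63, edgeR adjusted p = 0.00222) and Tnnt3 (1.70, adjusted p = 0.0174) were called higher after siPaf1. After siCdc73, Myog (-1.64, adjusted p = 0.00886) and Myh3 (-1.39, adjusted p = 0.0122) were called lower there. No other myotube marker was called in 3'READS after either knockdown. Listed macrophage markers summed to 1.29 CPM at most in RNA-seq and to 7.60 in 3'READS. Endothelial markers summed to 1.18 at most in RNA-seq, but in 3'READS to 24.3 and 28.7 in siCtrl, 4.65 and 18.6 in siPaf1, 5.21 and 6.89 in siCdc73, and 3.53 in siSki8. Adipocyte markers in RNA-seq summed to 41.8 and 68.1 in siCtrl, 13.7 and 12.2 in siPaf1, 35.6 and 46.3 in siCdc73, and 137 in siSki8, and one of them, Pparg, fell by 2.03 after siPaf1 (edgeR adjusted p = 2.43e-06). In 3'READS they summed to 2.65 at most. The part of these markers in the members' changes was not tested.

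Mitotic genes formed a sizeable share of the RNA in control cells. The 29 members took 1.29% and 1.39% of RNA-seq reads in siCtrl, 0.396% and 0.293% in siPaf1, 0.485% and 0.302% in siCdc73, and 1.23% in siSki8. In 3'READS the 54 members took 1.07% and 0.88% in siCtrl, 0.400% and 0.398% in siPaf1, 0.606% and 0.396% in siCdc73, and 0.779% in siSki8. Leaving out Cdc25b and Bub3, which together held much of the reads, they took 0.490% and 0.563% in siCtrl, 0.166% and 0.123% in siPaf1, 0.209% and 0.128% in siCdc73, and 0.530% in siSki8. The siPaf1 and siCdc73 libraries thus lay below both controls in both assays, while the siSki8 library lay below both controls in RNA-seq and in 3'READS over all members, and between them in 3'READS without Cdc25b and Bub3. In bulk RNA, fewer cells in mitosis and less RNA per cell cannot be told apart.

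Per length, the mean of the deposited RPKM values in siCtrl ran from 24.6 for Foxm1, the transcription factor of the G2 and M genes, to 376 for Pttg1 (securin, the inhibitor of separase). Birc5 (survivin) followed with 258 and then Top2a, which untangles sister chromatids, with 223. This order is soft, since in the 2 siCtrl libraries Pttg1 was at 217 and 534, Birc5 at 114 and 402, Top2a at 215 and 232, and Foxm1 at 31.6 and 17.5, so that Birc5 lay below Top2a in batch 1.

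After siPaf1 and siCdc73 nearly all members fell, to medians of 24.1% to 30.5% of control across both assays. With batch in the model, 28 of 29 members tested in RNA-seq were lower after siPaf1 and 27 of 29 after siCdc73, with none higher. Over all 6521 genes tested, 16.2% were called lower and 16.3% higher after siPaf1, and 20.5% and 19.4% after siCdc73. The median log2 fold change of members was -2.05 after siPaf1 and -1.87 after siCdc73, against medians of 0.02 and -0.02 over all genes. In 3'READS, 48 of the 53 members tested were lower after siPaf1 and 43 of 53 after siCdc73, with none higher, and their medians were -2.01 and -1.71. Over all 12579 genes tested, 9.08% were called lower and 9.74% higher after siPaf1, and 11.8% and 10.8% after siCdc73, with medians of 0.08 and -0.02. Both knockdowns were compared with the same siCtrl libraries.

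Calls were made by edgeR's quasi-likelihood test at an adjusted p under 0.05, and most depended on the batch term. Without it, and with the filter on low counts, edgeR called 0 members lower in either assay after either knockdown (percent called over all genes 0). With no such filter it called 14 and 11 of 29 members lower in RNA-seq after siPaf1 and siCdc73, beside 1.04% and 1.63% of all genes, and 0 in 3'READS. At an unadjusted p under 0.05, 28 and 22 of 29 members were then lower in RNA-seq after siPaf1 and siCdc73, beside 8.96% and 11.2% of all genes, and 39 and 32 of 53 in 3'READS, beside 6.46% and 8.42%. DESeq2 without the batch term called 25 and 16 members lower in RNA-seq, beside 3.3% and 4.55% of all genes that it gave an adjusted p, and 24 and 20 in 3'READS, beside 1.95% and 3.23%. The medians moved little without the term, to -2.03 and -1.73 in RNA-seq and -1.98 and -1.64 in 3'READS.

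The separation was visible library by library. In RNA-seq, both siPaf1 libraries lay below both siCtrl libraries for 28 of 29 members, as for 23% of all genes, with Bub3 the exception. Both siCdc73 libraries did so for 26 of 29, as for 26.3% of all genes, with Bub3, Pttg1 and Birc5 overlapping. In 3'READS the same held for 48 of 53 members after siPaf1 (21.1% of all genes) and for 44 of 53 after siCdc73 (23.7%). Within batches, the median log2 ratio of members in RNA-seq was -1.67 in batch 1 and -2.49 in batch 2 for siPaf1, and -1.37 and -2.34 for siCdc73. In 3'READS it was -1.68 and -2.20 for siPaf1, and -1.32 and -1.94 for siCdc73. Members were thus further below control in batch 2 than in batch 1 in each pair. Without the siPaf1 library of batch 2, 40 of 53 members were still called lower after siPaf1 in 3'READS, beside 7.13% of all genes, with a median of -1.89. The 8 members that lost the call were Aurka, Aurkb, Ckap2, Dlgap5, Hmmr, Kif20a, Kif4 and Nek2. The 3'READS counts fell further, by over 1.5 times for siPaf1, without siCtrl of batch 2, to 29 after siPaf1 and 29 after siCdc73, beside 3.38% and 6.13% of all genes. After siCdc73 the count was 27 without its own batch 2 library, beside 6.8%.

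**Figure D2:**
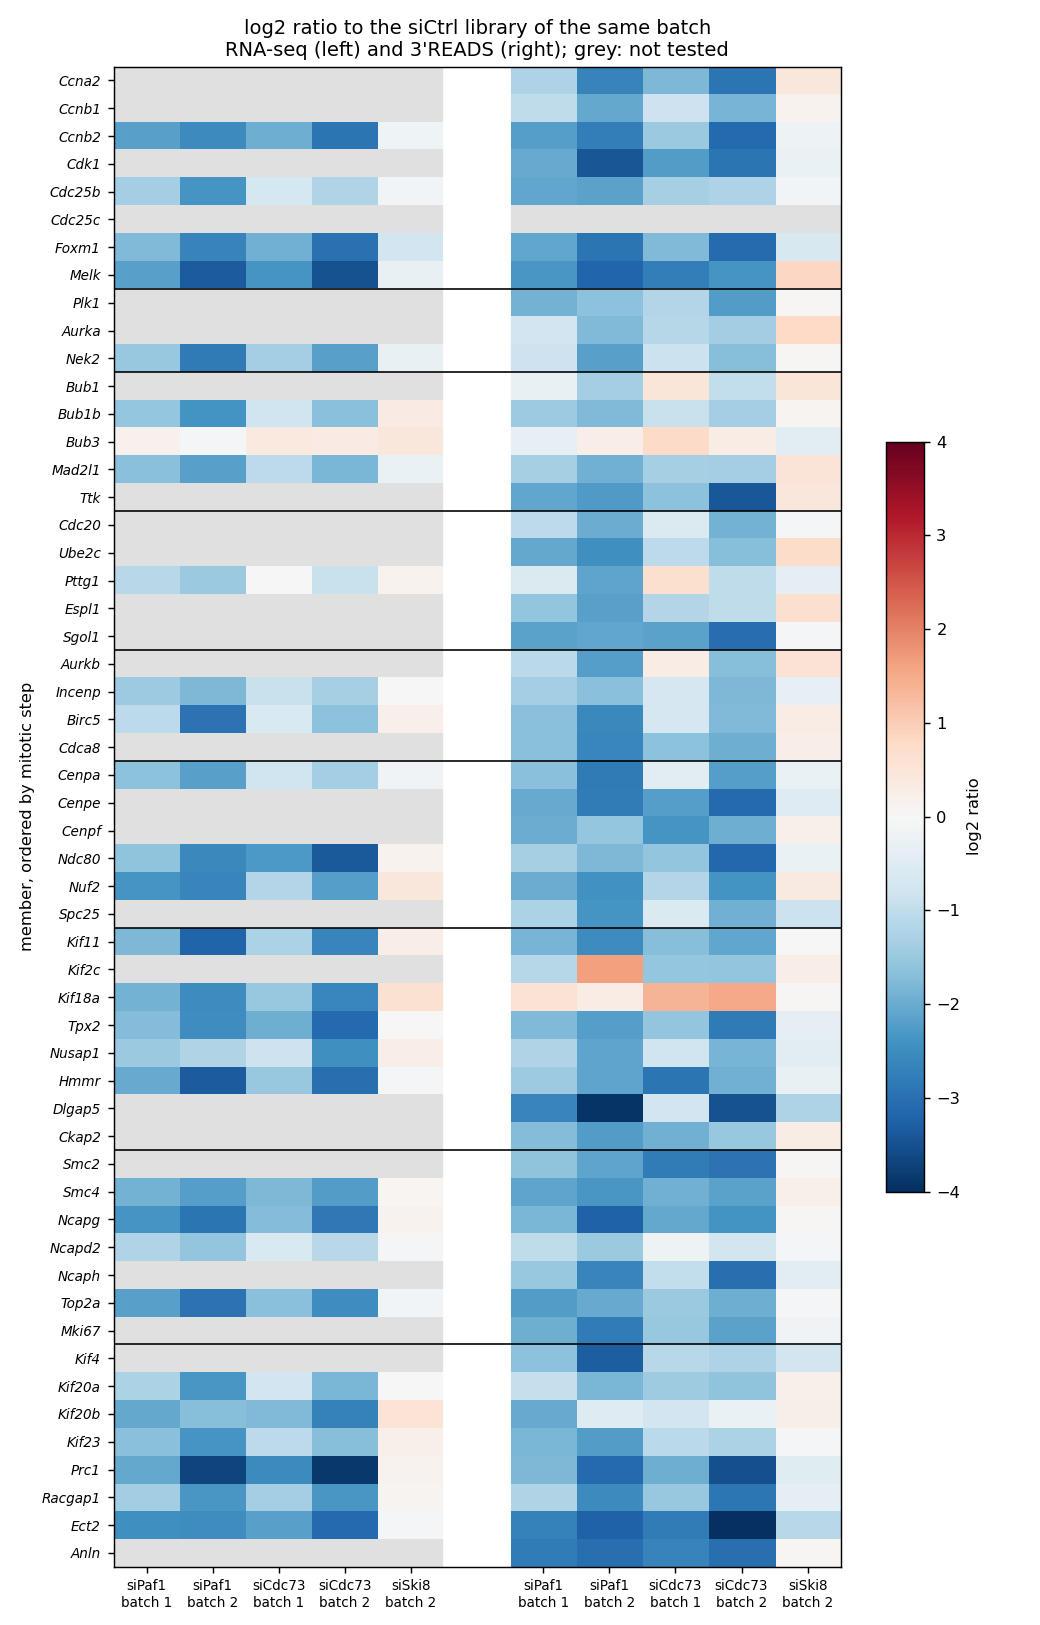
Log2 ratio of each knockdown library to the siCtrl library of its batch, for the 54 members ordered by mitotic step (lines part the steps), in RNA-seq on the left and 3'READS on the right; blue is lower, red is higher, colours saturate at 4 on either side and grey marks members not tested. The siPaf1 and siCdc73 columns are blue apart from Bub3, Pttg1 in siCdc73 of batch 1, and a few 3'READS rows such as Kif18a and Kif2c, and the siSki8 columns are pale, with medians of 0.07 in RNA-seq and 0.01 in 3'READS.

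Mitotic entry was the step with the lowest median in 3'READS after either knockdown. Its 7 tested members were all called lower, with medians of -2.54 after siPaf1 and -2.42 after siCdc73. In RNA-seq its 4 listed members (Ccnb2, Cdc25b, Foxm1 and Melk) had medians of -2.31 and -2.43, while the 4 listed condensin members had -2.32 and -2.05, the lowest of the steps after siPaf1. Within batch 2 in 3'READS, cytokinesis (-2.78) was slightly below entry (-2.76) after siPaf1. Without the siPaf1 library of batch 2, the 3'READS median of entry after siPaf1 was -2.20, still the lowest, with all 7 members called. Steps were not tested against each other, and their members ranged widely: in 3'READS from -2.77 to -1.57 for entry after siPaf1.

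Cdk1, the kinase that drives entry, was at 136 and 352 CPM in siCtrl by 3'READS, at 33.0 and 32.9 in siPaf1, at 28.4 and 46.4 in siCdc73, and at 292 in siSki8. The 4 knockdown libraries of Paf1 and Cdc73 thus all lay below the lower control. Its cyclins fell too. Ccnb2 (cyclin B2) was at 447 and 514 CPM in siCtrl by RNA-seq, 98.5 and 86.9 in siPaf1, 115 and 67 in siCdc73, and 452 in siSki8. Ccna2 (cyclin A2) and Ccnb1 (cyclin B1) had 3'READS log2 fold changes of -1.999 and -1.57 after siPaf1, and of -2.42 and -1.39 after siCdc73.

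Melk, a kinase with peak levels in G2 and mitosis, showed the clearest fall of this step in RNA-seq. It was at 106 and 186 CPM in siCtrl, 23.3 and 18.2 in siPaf1, 20.4 and 16.3 in siCdc73, and 151 in siSki8. The log2 fold change was -2.76 (SE 0.29, edgeR adjusted p = 2.38e-08 with the batch term) after siPaf1 and -2.94 (SE 0.30, adjusted p = 8.57e-09) after siCdc73. Foxm1 was at 179 and 104 CPM in siCtrl, 52.5 and 16.1 in siPaf1, 47.2 and 12.8 in siCdc73, and 61.4 in siSki8, so that its siSki8 library lay between the controls and the 2 knockdowns. Of the 3 pA sites of Foxm1, the one with 80.0% of its reads is also listed as an intronic site of an overlapping gene, 4933413G19Rik, and its 3'READS value is uncertain for that reason. Cdc25c, a phosphatase that activates Cdk1, had 8 reads at most in any 3'READS library and was not tested.

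The mitotic kinases fell less in 3'READS, with medians of -1.55 after siPaf1 and -1.36 after siCdc73, and all 3 were called lower after either. When the batch 2 library of siPaf1 was left out, the siPaf1 median was -1.05 and 1 of the 3, Plk1, was called. Plk1, the polo-like kinase of centrosomes and kinetochores, was at 79.1 and 55.0 CPM in siCtrl, 21.2 and 17.7 in siPaf1, 35.0 and 11.6 in siCdc73, and 56.8 in siSki8. Aurka (Aurora A, of spindle poles) had log2 fold changes of -1.25 and -1.28. Nek2, a kinase of centrosome separation and the only one of the 3 listed in RNA-seq, was at 173 and 136 there in siCtrl, 59.5 and 18.8 in siPaf1, 66.6 and 30 in siCdc73, and 112 in siSki8. It fell by 2.14 (SE 0.28, edgeR adjusted p = 7.99e-07) and by 1.80 (SE 0.28, adjusted p = 5.96e-06) on the log2 scale.

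The spindle checkpoint delays anaphase until every chromosome is attached, and its genes parted. Bub1b (BubR1), a part of the mitotic checkpoint complex, was at 386 and 461 CPM in siCtrl by RNA-seq, 132 and 86.9 in siPaf1, 222 and 146 in siCdc73, and 583 in siSki8. It fell by 1.99 (SE 0.25, edgeR adjusted p = 3.87e-07) after siPaf1 and by 1.25 (SE 0.24, adjusted p = 0.000157) after siCdc73. Mad2l1 (Mad2, the inhibitor of Cdc20) had RNA-seq log2 fold changes of -1.95 and -1.45, and Ttk (Mps1), measured by 3'READS alone, of -2.27 and -2.68.

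Bub3, the partner of Bub1 and BubR1, was called in neither assay after either knockdown. Bub1 and Kif2c, measured by 3'READS alone, were not called after either knockdown as well. In RNA-seq Bub3 was at 153 and 297 CPM in siCtrl, 172 and 281 in siPaf1, 198 and 370 in siCdc73, and 409 in siSki8. In 3'READS it was at 1531 and 1830 in siCtrl, 1211 and 2185 in siPaf1, 2587 and 2253 in siCdc73, and 1331 in siSki8. The siPaf1 libraries lay within or around the controls, and the siCdc73 libraries lay above the control of the same batch in both assays. The log2 fold change was 0.05 (SE 0.22, edgeR adjusted p = 0.897) after siPaf1 and 0.35 (SE 0.22, adjusted p = 0.221) after siCdc73 in RNA-seq, and -0.02 (SE 0.29, adjusted p = 0.978) and 0.55 (SE 0.29, adjusted p = 0.187) in 3'READS. Its sign after siPaf1 changed between settings and assays. Without the siPaf1 library of batch 2 in the 3'READS fit, Bub3 was called higher after siCdc73 (0.53, adjusted p = 0.0452).

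At anaphase onset the anaphase-promoting complex, with its activator Cdc20, marks securin and cyclin B for destruction, and separase then cuts cohesin. In 3'READS all 5 members of this step were called lower after siPaf1 (median -1.92) and 4 of 5 after siCdc73 (median -1.28). Sgol1 (shugoshin, the protector of centromeric cohesin) was at 64.5 and 35.4 CPM in siCtrl, 14.6 and 8.27 in siPaf1, 14.3 and 4.12 in siCdc73, and 33.4 in siSki8. Cdc20, Ube2c (the ubiquitin-conjugating enzyme of the complex) and Espl1 (separase) had log2 fold changes of -1.57, -2.30 and -1.92 after siPaf1, and of -1.28, -1.43 and -1.08 after siCdc73.

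Pttg1 was the exception of this step. In RNA-seq it was at 323 and 842 CPM in siCtrl, 150 and 302 in siPaf1, 327 and 458 in siCdc73, and 926 in siSki8. Both siPaf1 libraries lay below both controls, and the siCdc73 library of batch 1 was level with its control. Pttg1 fell by 1.31 (SE 0.24, edgeR adjusted p = 7.65e-05) after siPaf1. After siCdc73 its log2 fold change was -0.43 (SE 0.23, adjusted p = 0.144) in RNA-seq and -0.26 (SE 0.36, adjusted p = 0.650) in 3'READS.

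The chromosomal passenger complex corrects faulty attachments and then moves to the midzone. Incenp, its scaffold, was at 289 and 274 CPM in siCtrl by RNA-seq, 104 and 78.9 in siPaf1, 157 and 108 in siCdc73, and 273 in siSki8. It fell by 1.64 (SE 0.24, edgeR adjusted p = 3.78e-06) and by 1.11 (SE 0.24, adjusted p = 0.000375) on the log2 scale. Birc5 and Cdca8 (borealin), its targeting subunits, had 3'READS log2 fold changes of -2.17 and -2.15 after siPaf1, and of -1.25 and -1.80 after siCdc73. Aurkb (Aurora B), at 4.05 and 8.04 CPM in siCtrl by 3'READS, had 1.81 and 1.59 after siPaf1, against 4.99 and 2.34 after siCdc73, and was called lower after siPaf1 alone. Its log2 fold changes were -1.86 (SE 0.54, edgeR adjusted p = 0.0248) and -0.83 (SE 0.53, adjusted p = 0.283), and without the siPaf1 library of batch 2 the siPaf1 value was -1.74 (adjusted p = 0.0722).

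The 6 kinetochore members were all called lower in 3'READS after either knockdown, with medians of -2.07 and -2.01. Nuf2, of the Ndc80 complex that binds microtubules, was at 309 and 412 CPM in siCtrl by RNA-seq, 60.3 and 65.3 in siPaf1, 136 and 88.7 in siCdc73, and 570 in siSki8. It fell by 2.53 (SE 0.26, edgeR adjusted p = 1.56e-08) and by 1.68 (SE 0.25, adjusted p = 4.32e-06) on the log2 scale. Its partner Ndc80 was at 117 and 159 in siCtrl, 38.4 and 26.2 in siPaf1, 23.7 and 15.3 in siCdc73, and 175 in siSki8, with the siCdc73 libraries the lowest. Cenpa, the histone H3 variant of centromeres, had RNA-seq log2 fold changes of -1.93 and -1.10, and Cenpe, a kinetochore motor, had 3'READS values of -2.47 and -2.76.

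Among spindle genes, all 5 listed in RNA-seq were called lower after either knockdown, with medians of -2.24 and -2.06. Hmmr, a spindle pole protein, was at 238 and 143 CPM in siCtrl, 58.7 and 14.0 in siPaf1, 82.7 and 17.2 in siCdc73, and 135 in siSki8. It fell by 2.67 (SE 0.30, edgeR adjusted p = 8.02e-08) and by 2.25 (SE 0.30, adjusted p = 6.12e-07) on the log2 scale. Kif11 (Eg5, the kinesin that pushes the poles apart) had log2 fold changes of -2.50 and -1.98, and Tpx2, the activator of Aurora A, of -2.15 and -2.53. Dlgap5 (HURP) had 18 and 31 reads in siCtrl by 3'READS, 2 and 0 in siPaf1, 7 and 1 in siCdc73, and 10 in siSki8. It was called lower after siPaf1 (-5.07, SE 1.45, edgeR adjusted p = 0.0236), where the library at 0 is that of batch 2, and without it the value was -4.07 (adjusted p = 0.0722). It was not called after siCdc73 (-2.72, SE 1.26, adjusted p = 0.139).

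Condensin and Top2a compact and untangle the chromosomes. Top2a was the member with the most RNA-seq reads, at 2450 and 2795 CPM in siCtrl, 543 and 358 in siPaf1, 768 and 502 in siCdc73, and 2599 in siSki8. It fell by 2.59 (SE 0.24, edgeR adjusted p = 2.89e-09) and by 2.09 (SE 0.23, adjusted p = 4.58e-08) on the log2 scale. The step's medians in 3'READS were -2.18 and -2.03, with 7 and 6 of 7 members called lower. Ncapd2, a condensin I subunit, moved least of them, with -1.26 (SE 0.28, edgeR adjusted p = 0.00528) after siPaf1 and -0.49 (SE 0.27, adjusted p = 0.217) after siCdc73. Mki67 (Ki-67, which coats mitotic chromosomes) was at 98.0 and 40.7 CPM in siCtrl by 3'READS, 25 and 5.62 in siPaf1, 33.9 and 9.09 in siCdc73, and 37.0 in siSki8.

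Cytokinesis held the member with the lowest fold change in RNA-seq. Prc1, which bundles the microtubules of the midzone, was at 694 and 711 CPM in siCtrl, 167 and 55.8 in siPaf1, 119 and 48.5 in siCdc73, and 785 in siSki8. It fell by 2.88 (SE 0.29, edgeR adjusted p = 1.26e-08) after siPaf1 and by 3.26 (SE 0.30, adjusted p = 1.60e-09) after siCdc73, the lowest value of the 29 members after either knockdown. In 3'READS Ect2, the exchange factor that activates RhoA at the cell equator, was at 29.9 and 102 in siCtrl, 4.39 and 10.7 in siPaf1, 4.13 and 2.91 in siCdc73, and 46.8 in siSki8. Its log2 fold changes there were -3.04 and -4.16, and in RNA-seq -2.49 and -2.59. Anln (anillin, of the contractile ring) had 3'READS values of -2.99 and -2.95. Racgap1 and Kif23, which together form centralspindlin, had RNA-seq values of -1.88 and -2.02 after siPaf1, and of -1.87 and -1.38 after siCdc73.

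**Figure D3:**
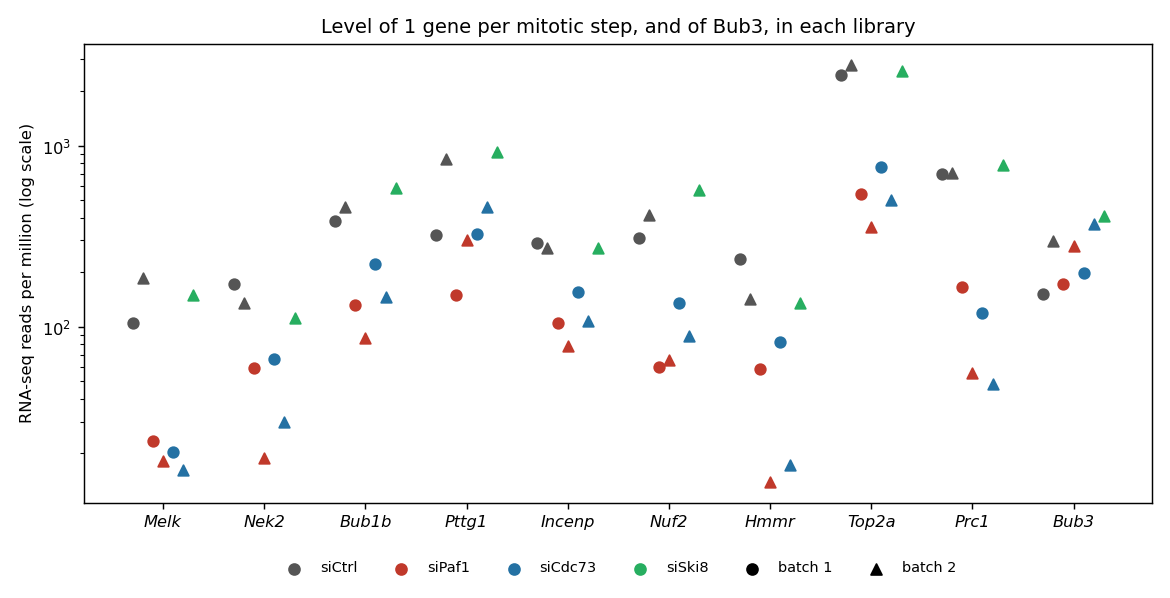
RNA-seq levels (CPM), on a log axis, of the member with the smallest p after siPaf1 in each of the 9 steps and of Bub3, in all 7 libraries (colour, group; circle, batch 1; triangle, batch 2). For Prc1 the siPaf1 and siCdc73 libraries sit between 48.5 and 167, all below the siCtrl and siSki8 libraries, while for Bub3 the groups overlap.

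**Figure D4:**
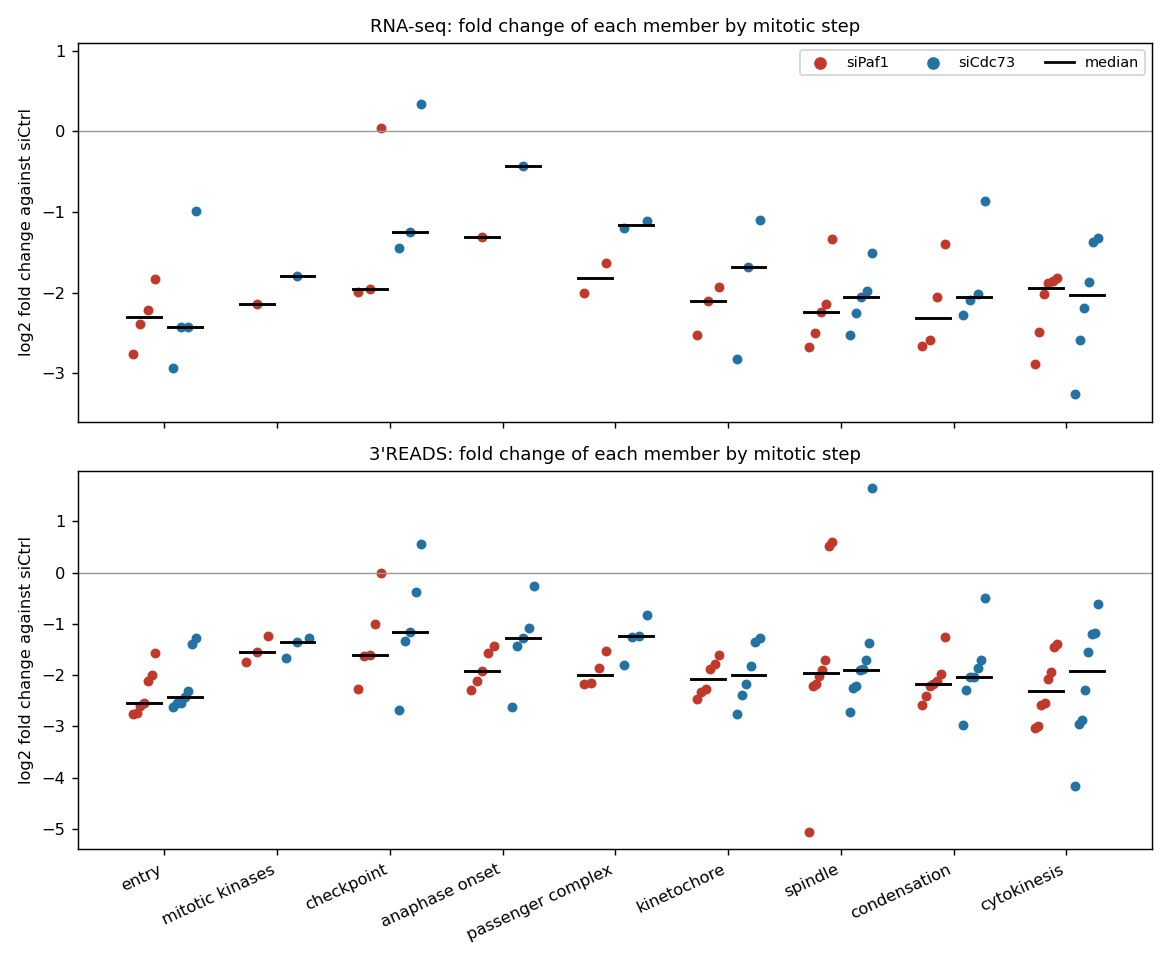
Log2 fold change against siCtrl of each tested member, with batch in the model, by mitotic step, after siPaf1 (red) and siCdc73 (blue), in RNA-seq (top) and 3'READS (bottom); each dot is 1 gene and black lines are medians. In 3'READS the entry genes have medians of -2.54 and -2.42, and Bub3, Kif18a and Kif2c account for the values at or above 0.

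Members that were not called in 3'READS included some with few reads. Besides Bub3, they were Bub1, Kif18a, Kif20b and Kif2c after both knockdowns, and Aurkb, Dlgap5, Kif4, Ncapd2 and Pttg1 after siCdc73. Kif20b, a kinesin of the midzone, was at 2.70 CPM at most in any 3'READS library, with log2 fold changes of -1.40 (SE 0.98, edgeR adjusted p = 0.340) and -0.61 (SE 0.95, adjusted p = 0.702). In RNA-seq, where it was at 494 and 754 CPM in siCtrl, 119 and 232 in siPaf1 and 145 and 115 in siCdc73, it was called lower after either. The fall of Kif20b was thus seen by the assay with more reads for it.

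Kif2c (MCAK, a microtubule-depolymerising kinesin) was decided by 1 library. It was at 4.20 and 6.81 CPM in siCtrl by 3'READS, 1.81 and 21.7 in siPaf1, 1.30 and 2.13 in siCdc73, and 8.19 in siSki8. The siPaf1 library of batch 2, the one that stood apart, held 324 reads at a single pA site of its last exon. The log2 fold change after siPaf1 was 0.60 (SE 0.57, edgeR adjusted p = 0.501) with that library and -1.21 (adjusted p = 0.311) without it. After siCdc73 it was -1.88 (SE 0.66, adjusted p = 0.0515) with that library in the fit and -1.67 (adjusted p = 0.00889) without it.

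No member was called lower after siSki8. Of the 29 members in RNA-seq, 0 were called in either direction by edgeR with the batch term, beside 2.5% of all genes lower and 2.91% higher, with a median of 0.32 and 2 members below 0. Without the batch term the median was 0.14 with 10 members below 0, and against siCtrl of batch 2 alone it was 0.07 with 13 below 0. DESeq2 with the batch term called 0 as well. In 3'READS 0 of 53 were called, beside 0.0715% lower and 0.0795% higher, with a median of 0.10. At an unadjusted p under 0.05, 0 members were lower and 2 higher in RNA-seq, beside 9.86% and 10.7% of all genes, and 0 lower and 3 higher in 3'READS, beside 5.89% and 5.75%. The group has 1 library, so its spread is taken from the other groups. Compared directly, 28 members were lower after siPaf1 than after siSki8 in RNA-seq (median -2.41, 15.4% of all genes) and 27 after siCdc73 than after siSki8 (median -2.20, 16% of all genes). In 3'READS these counts were 45 (median -2.14, 6.3% of all genes) and 40 (median -1.95, 5.63%), and 37 for siPaf1 (median -2.01, 3.4% of all genes) without its batch 2 library.

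The knockdowns of Paf1 and Cdc73 differed at few members. In RNA-seq, 7 members were lower after siPaf1 than after siCdc73 and 0 were higher, beside 13.6% and 14.6% of all genes, so that the share of members called higher lay below the background and the share called lower (7 of 29) above it. The 7 were Birc5, Bub1b, Cdc25b, Cenpa, Kif23, Nuf2 and Pttg1. The largest difference of these was that of Pttg1, with -0.89 (SE 0.24, edgeR adjusted p = 0.00592). Nuf2 (-0.85, SE 0.25, adjusted p = 0.013), Cdc25b, a phosphatase that activates Cdk1 (-0.85, SE 0.26, adjusted p = 0.016), and Cenpa (-0.83, SE 0.26, adjusted p = 0.0171) followed. Birc5 (-0.81, SE 0.29, adjusted p = 0.0384), Bub1b (-0.75, SE 0.24, adjusted p = 0.0227) and Kif23 (-0.64, SE 0.24, adjusted p = 0.0412) were closer to 0. Ndc80 went the other way with 0.72 (SE 0.29), which missed the threshold (adjusted p = 0.0574).

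In 3'READS, Cdc25b (-0.84, SE 0.26, edgeR adjusted p = 0.0392) and Pttg1 (-1.17, SE 0.35, adjusted p = 0.0389) were lower after siPaf1 and Kif2c was higher (2.49, SE 0.64, adjusted p = 0.0187), beside 6.3% and 8.08% of all genes. Cdc25b was at 4927 and 1103 CPM in siCtrl, 1154 and 251 in siPaf1, 1971 and 471 in siCdc73, and 1012 in siSki8. The batches thus differed in siCtrl, siPaf1 and siCdc73. Within each batch the order was the same, with siPaf1 lowest and siCtrl highest. Without the siPaf1 library of batch 2 the difference of Kif2c was 0.47 (adjusted p = 0.801), and those of Cdc25b and Pttg1 were -0.79 (adjusted p = 0.0603) and -0.85 (adjusted p = 0.0660). All 7 RNA-seq differences lost their call without the siCdc73 library of batch 1. Most of the 7 lost it without the siCdc73 or the siPaf1 library of batch 2. Without the siPaf1 library of batch 1 more members were called, and the share of all genes in these fits is not given.

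The 3'READS data also show where the members' transcripts ended. The 54 members had 207 pA sites, of which 135 were assigned to the 3'-most exon, 53 to introns and 4 by the files to upstream exons, while 15 were upstream and antisense. By the genome annotation, 1 of the 4 upstream exon sites, the only site of Bub1b, lies in its last exon, exon 23 of 23. A pA signal, AATAAA, stood in the 40 bases before 47.4% of the members' 3'-most exon sites and 43.3% of all such sites, and ATTAAA before 14.8% and 15.3%. For the intronic sites of members, the share with AATAAA was 41.5%, and for all intronic sites 45.1%. The 30 bases that end at the site are shown for 5 sites of the 4 members whose isoforms are described next, with the signal in capitals in the 4 that hold one within these bases. The proximal Cdk1 window holds neither AATAAA nor ATTAAA.

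Bub1 intron: gAATAAAttacgtatatgacagtttgaaaa

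Kif4 intron: tttgttacATTAAAgcatttatttattgta

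Hmmr last exon: taatataaAATAAAgtaatataaaaactca

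Cdk1 proximal: tgaatttaaatataattctgtatatgtgca

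Cdk1 distal: ggAATAAAaggattattcacaaacagaaaa

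By the annotation of the genome of the files' build, mm9, the Bub1 site lies in intron 13 of 24 (chr2:127640229-127640258, minus strand) and the Kif4 site in intron 12 of 29 (chrX:97875609-97875638, plus strand). The Hmmr site lies in exon 21 of 21 (chr11:40514897-40514926, minus strand). Cdk1 is annotated at chr10:68799383-68815686 on the minus strand, and its proximal window (chr10:68801052-68801081) lies within these bounds and its distal window (chr10:68797894-68797923) past the 3' end of the gene. The files list both sites for the 3'-most exon of Cdk1.

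Most members lost reads at the ends of their full-length transcripts. Levels at 3'-most exon sites were below both controls in both siPaf1 libraries for 47 of 53 members and in both siCdc73 libraries for 45 of 53, beside 18.8% and 21% of all 14965 genes with such a site. They were above both controls for 0 and 1 members (Bub3), beside 19.2% and 18.4%. Of 19 members with an intronic site, the intronic level was above both controls in both siPaf1 libraries for 5 (Bub1, Cenpe, Espl1, Hmmr and Nek2) and in both siCdc73 libraries for 7 (Anln, Bub1, Espl1, Hmmr, Kif18a, Kif4 and Ncapg). Over all 6706 genes with an intronic site, 22.6% and 27% lay above both controls, so the members' counts were near the background. It was below both controls for 2 (Ccnb1 and Nuf2) and 1 (Ccnb1), beside 12.2% and 11.4% of all genes. The read numbers were small, down to 1 and 2 reads for Nek2 in siPaf1. Over all members, the summed intronic level was 23.7 and 22.97 CPM in siCtrl, 25.04 and 17 in siPaf1, 30.2 and 19.7 in siCdc73, and 15.4 in siSki8, so that the siPaf1 and siCdc73 libraries of batch 1 lay above both controls and those of batch 2 below both. Leaving out Ccnb1, which held most of the intronic reads in siCtrl, the summed intronic level of members was 6.75 and 3.40 CPM in siCtrl, 8.26 and 6.68 in siPaf1, 16.5 and 12.3 in siCdc73, and 5.92 in siSki8. Without Ccnb1, both siCdc73 libraries thus lay above both controls, and the siPaf1 library of batch 2 did not. As a share of the reads of members other than Ccnb1, intronic reads were 0.0583% and 0.0439% in siCtrl, 0.213% and 0.195% in siPaf1, 0.243% and 0.314% in siCdc73, and 0.0858% in siSki8. This share also moves with the 3'-most exon reads of the same members, which stood at 11549.6 and 7655 CPM in siCtrl, 3865 and 3393 in siPaf1, and 6758 and 3866 in siCdc73. Over all genes the intronic share was 2.04% and 1.70% in siCtrl, 2.80% and 2.59% in siPaf1, 2.53% and 2.40% in siCdc73, and 1.93% in siSki8.

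Bub1, a checkpoint kinase at kinetochores, was among the members whose summed 3'READS level was not called. Its 3'-most exon sites had 6 and 45 reads in siCtrl, 2 and 11 in siPaf1, 0 and 9 in siCdc73, and 44 in siSki8. Its intronic sites had 6 and 3 reads in siCtrl, 9 and 14 in siPaf1, 12 and 22 in siCdc73, and 13 in siSki8. In both libraries of siPaf1 and of siCdc73 the 3'-most exon sites thus had fewer reads than the intronic sites, while they had as many in siCtrl of batch 1 and more in siCtrl of batch 2 and in siSki8. The sum had log2 fold changes of -1.01 (SE 0.62, edgeR adjusted p = 0.271) and -0.39 (SE 0.62, adjusted p = 0.706). With 3'-most exon sites alone, they were -2.26 (adjusted p = 0.104) and -2.85 (adjusted p = 0.0507), still short of a call.

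Kif18a, a kinesin that dampens chromosome oscillations, differed most between the assays. In RNA-seq it was at 139 and 214 CPM in siCtrl, 37.4 and 37.0 in siPaf1, 48.9 and 34.5 in siCdc73, and 330 in siSki8, and it fell by 2.24 and by 2.06 on the log2 scale. In 3'READS nearly all of its reads were intronic, with 7 and 5 reads in siCtrl, 13 and 13 in siPaf1, 14 and 32 in siCdc73, and 6 in siSki8. Its only 3'-most exon site had 2 reads, in 1 library. The 3'READS fold change of Kif18a (0.52, SE 0.92, edgeR adjusted p = 0.733 after siPaf1, and 1.65, SE 0.91, adjusted p = 0.213 after siCdc73) thus describes intronic ends and not its full-length transcript.

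Isoform tests were possible for few members. CDS-APA compares isoforms that end in upstream exons or introns with those that end in the 3'-most exon. It could be tested for 5 members (Bub1, Ccnb1, Hmmr, Kif4 and Ttk), and 1 was called with more upstream isoform after siPaf1 and 2 after siCdc73, beside 18.9% and 20.4% of all 1766 genes tested, all with the batch term. Hmmr had 0 and 3 upstream reads in siCtrl, 3 and 10 in siPaf1, 0 and 21 in siCdc73 and 2 in siSki8, against 42 and 167, 11 and 34, 0 and 25, and 113 at the last exon. The upstream isoform rose relative to the last exon by 4.46 (SE 1.46, edgeR adjusted p = 0.0137) after siPaf1 and by 5.79 (SE 1.62, adjusted p = 0.00306) after siCdc73 on the log2 scale. After siCdc73 the value rests on the library of batch 2, since that of batch 1 has no reads at the sites tested.

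Kif4, a chromokinesin of the midzone, had 2 and 4 upstream reads in siCtrl, 3 and 0 in siPaf1, 4 and 22 in siCdc73 and 0 in siSki8, against 49 and 90, 15 and 11, 12 and 22, and 46 at its last exon. Summed over its sites, Kif4 was called lower after siPaf1 (-2.59, and -1.74 with adjusted p = 0.0533 without the batch 2 library) and not after siCdc73 (-1.19, SE 0.51, edgeR adjusted p = 0.108). Its upstream isoform rose relative to the last exon by 3.86 (SE 1.46, edgeR adjusted p = 0.0380) after siCdc73. After siPaf1 the same ratio was at 1.43 (SE 2.02, adjusted p = 0.678). For Bub1 the ratio was at 3.96 (SE 2.01, adjusted p = 0.1501) and 5.05 (SE 2.10, adjusted p = 0.0645) and was not called. The call of Hmmr after siPaf1 and that of Kif4 after siCdc73 were lost when any siCtrl library or any library of that knockdown was left out. The call of Hmmr after siCdc73 was lost without the batch 2 library of siCtrl or of siCdc73. Without the batch term, 0 members were called by edgeR after either knockdown, beside 2.21% and 4.02% of all genes, and 1 and 3 of 5 had an unadjusted p under 0.05 in either direction, beside 20.3% and 20.1%.

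3'UTR-APA compares, within the 3'-most exon, the 2 sites with the most reads. Of 19 members tested, 0 were called by edgeR with the batch term after siPaf1 and 1 after siCdc73, beside 5.1% and 3.88% of all 4567 genes called with more proximal isoform. At an unadjusted p under 0.05 in either direction, the counts were 1 and 2, beside 17.7% and 14.8% of all genes, so the members' shares lay below the background. The member called was Cdk1. Its proximal site held 65.2% and 92.6% of the reads of both sites in siCtrl, 80.9% and 93.1% in siPaf1, 88.6% and 97.5% in siCdc73, and 94.4% in siSki8. The siCdc73 libraries were above the control of their batch, but the groups overlap across batches. The proximal isoform was higher relative to the distal by 1.84 (SE 0.50, edgeR adjusted p = 0.0124) after siCdc73 and by 0.65 (SE 0.46, adjusted p = 0.510) after siPaf1. The call after siCdc73 was lost when any siCtrl or siCdc73 library was left out.

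**Figure D5:**
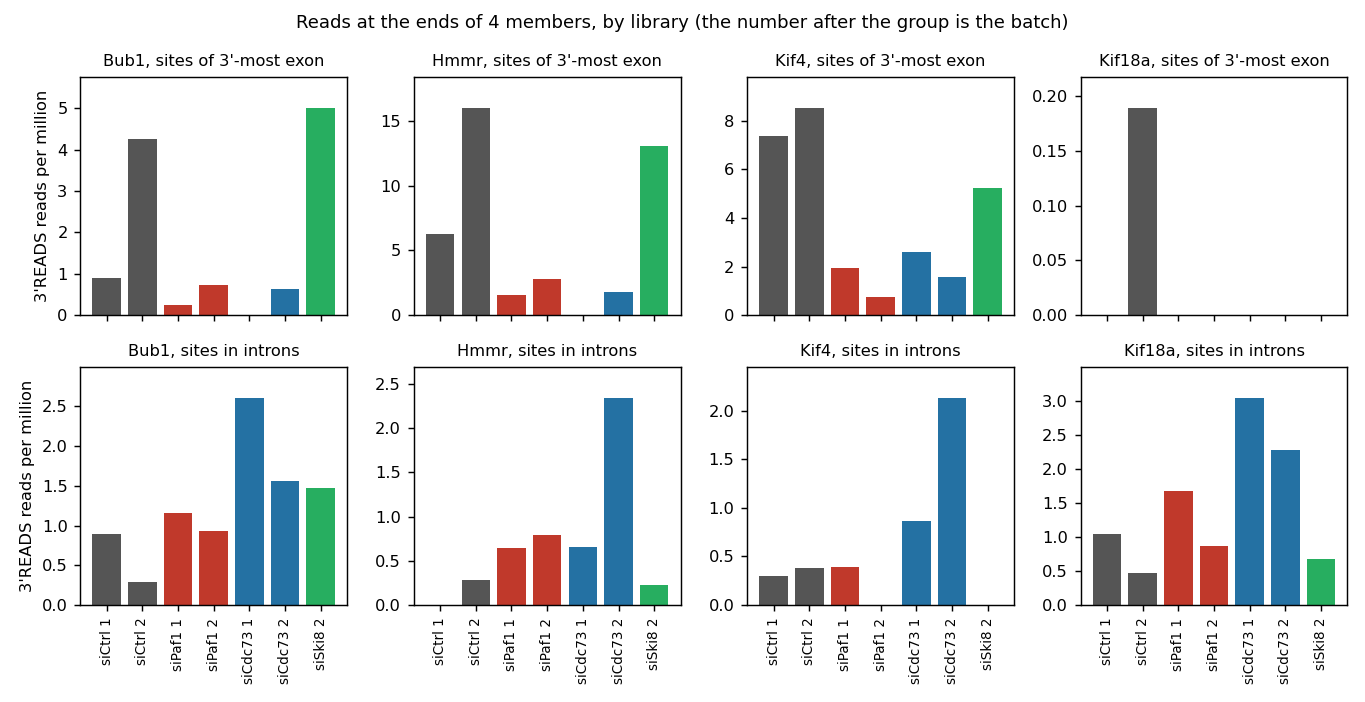
3'READS levels (CPM) at the sites of the 3'-most exon (top) and in introns (bottom) of Bub1, Hmmr, Kif4 and Kif18a, 1 bar per library, with a separate axis from 0 for each panel. For Bub1, Hmmr and Kif4 the siPaf1 and siCdc73 bars are below the controls at the 3'-most exon, while intronic reads are few, at 3.04 CPM at most.

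Other genes of mitosis, from a list of 112 that are not members, had medians below 0 as well, nearer to 0 than the members. In RNA-seq, 58 were tested, 42 were called lower and 1 higher after siPaf1 (median -1.41), and 41 lower and 2 higher after siCdc73 (median -1.36). In 3'READS, 100 were tested, 52 lower and 1 higher (median -1.33), and 48 lower and 6 higher (median -1.11). With the siPaf1 library of batch 2 left out, 49 were lower and 1 higher after siPaf1. Cep55, an abscission protein, had the lowest value after siPaf1 in RNA-seq (-3.48), at 193 and 231 CPM in siCtrl, 27.2 and 13.6 in siPaf1, 50.3 and 17.9 in siCdc73, and 162 in siSki8. Nsl1, of the kinetochore's Mis12 complex, and Cenpm, of the inner kinetochore, followed with -3.04 and -2.70. Cdc27, a subunit of the anaphase-promoting complex, was the 1 gene called higher after siPaf1 in both assays (0.66 and 1.19). Anapc2, of the same complex, was called higher after siCdc73 in both (0.98 and 0.82).

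A list of 14 factors that act at the CHR or at E2F sites held subunits of DREAM and MYB-MuvB beside other E2F factors. In RNA-seq, 5 were tested, with 3 lower after siPaf1 and 4 after siCdc73. All 14 were tested in 3'READS, with 7 and 5 lower (6 after siPaf1 without its batch 2 library), and none was called higher in either assay. Mybl2 (B-Myb, of the activating complex) had log2 fold changes of -1.66 and -1.72 in RNA-seq, nearer to 0 than the members' medians, and of -1.74 and -1.92 in 3'READS, where the siCdc73 value lay below their median. Some E2F factors fell further in 3'READS: E2f8 by 3.02 and by 2.69 on the log2 scale, and E2f1 and E2f3 by 2.45 and by 2.47 after siCdc73. Others did not, as E2f2 (0.06, edgeR adjusted p = 0.933) and E2f4 (0.56, adjusted p = 0.242) were not called after siCdc73. E2f2 had -2.04 after siPaf1. In RNA-seq E2f3 had -0.72 after siPaf1 and -1.42 after siCdc73. Rbl2 (p130, of the repressing complex) was not called in 3'READS, with -0.14 and -0.31. The 7 factors called lower there after siPaf1 were Mybl2, Tfdp1, E2f1, E2f2, E2f3, E2f7 and E2f8. The 5 after siCdc73 were Mybl2, Lin54, E2f1, E2f3 and E2f8. Lin9, Lin37, Lin52, Rbl1, Rbl2 and E2f4 were called after neither knockdown in 3'READS.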

How the data were processed

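RNA-seq and 3'READS were each measured in 7 libraries. Per the study's methods, Bowtie2 aligned the reads to build mm9. The authors deposited raw read counts and RPKM values per RefSeq transcript (coding regions), and counts of PASS reads per pA site. Here, 1 transcript per gene (highest mean count) stood for a gene, sense sites were summed per gene, and RPKM was used for levels only. Counts were tested with edgeR 4.0.16 (quasi-likelihood, TMM, filterByExpr, all 7 libraries, Benjamini-Hochberg over all genes), without a batch term as the main design. Per the labels, replicate numbers are batches, and libraries of 1 batch deviated together (r across genes 0.620, 0.748 and 0.633 in RNA-seq, and 0.433, 0.610 and 0.432 in 3'READS), so the fit with the replicate block is given throughout. DESeq2 1.42.0 was an alternative. Sites under 5% of a gene's reads were left out of isoform tests, which needed a mean of 20 reads per library. CPM values are TMM-scaled, and within-batch ratios use a prior count of 2. Full statistics went to the member with the smallest p per step, to members not called, and to members that differed between the knockdowns or in isoforms. Promoters and pA windows were read from RefSeq and mm9. Nothing says that batches were separate cultures. Without the block, p-values measure the spread between libraries of a group. With it, they measure only the spread left once the shared difference between batches is removed. The common coefficient of variation was 0.397 without and 0.179 with the block in RNA-seq, and 0.515 and 0.247 in 3'READS. Members and lists were chosen with earlier results of these data known. The fits were also run on simulated counts with a spread set by hand. That outcome is not given here and does not show how well the fits suit these data.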

Additional observations from a re-analysis of the deposited data

Results flagged for a closer look

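Upstream antisense reads at the members, which no comparison above uses, were at a higher level in the siPaf1, siCdc73 and siSki8 libraries than in both siCtrl libraries. They were at 0.30 and 0.85 CPM in siCtrl, from 2 and 9 reads, and at 1.25 in siSki8. The siPaf1 libraries had 1.03 and 3.31 CPM, from 8 and 50 reads. That of batch 1 thus lay below siSki8, and that of batch 2 is the library that stood apart. The siCdc73 libraries had 3.26 and 3.19 CPM, from 15 and 45 reads. They came from 15 sites of 11 members, among them Kif11 with 14 reads and Prc1 with 9 and 4 reads at its 2 sites in siCdc73 of batch 2. Over all genes, upstream antisense reads were at 1770 and 1279 CPM in siCtrl, 1753 and 1801 in siPaf1, 2592 and 2083 in siCdc73, and 1330 in siSki8. The difference at members was not tested.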

How the results depend on the processing

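Most calls rest on the replicate block, while the members' medians after siPaf1 and siCdc73 stayed below 0 without it. Without it, edgeR called 0 members lower in each comparison on all libraries with the filter on low counts. With the replicate block, the counts of members called lower after siPaf1 and siCdc73 were 28 and 27 in RNA-seq and 48 and 43 in 3'READS, 28 and 27 against siSki8 in RNA-seq, and 45 and 40 in 3'READS. Between siPaf1 and siCdc73 they were 7 lower in RNA-seq, and 2 lower and 1 higher in 3'READS. For 3'UTR-APA after siCdc73 the count was 1, and for CDS-APA it was 1 after siPaf1 and 2 after siCdc73. DESeq2 without the block called 25 and 16 members lower in RNA-seq after siPaf1 and siCdc73, 24 and 20 in 3'READS, 16 and 11 against siSki8 in RNA-seq (2.39% and 2.55% of all genes), and 14 and 13 in 3'READS (1.13% and 1.05%). With neither block nor filter on low counts, edgeR called 14 and 11 in RNA-seq after siPaf1 and siCdc73 (1.04% and 1.63% of all genes), and 10 and 5 against siSki8 (0.632% and 0.468%). The study's rule on pooled reads called 28 and 28 (18.7% and 28.1% of all genes). Leaving out 1 library without the block gave 0 to 3 members after siPaf1 in RNA-seq, 0 to 1 for CDS-APA after siCdc73, and a 3'READS median after siCdc73 of -2.08 to -1.35.

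Other settings were run within the blocked fit. Their counts of members are given here without the share of all genes, and are not set against a background. Between siPaf1 and siCdc73 in RNA-seq, library-size scaling gave 3 lower and 1 higher, and leaving out 1 library gave 0 to 12 lower and 0 to 2 higher. In 3'READS, DESeq2 gave 4 lower and 0 higher, library-size scaling 0 lower and 2 higher, and leaving out 1 library 0 to 8 lower and 0 to 3 higher. Leaving out 1 library gave 29 to 48 members lower after siPaf1 in 3'READS, with 29 without siCtrl of batch 2. It gave 27 to 45 after siCdc73, with 27 without siCdc73 of batch 2, and 22 to 44 for siCdc73 against siSki8. It gave 0 to 3 members higher after siSki8 in RNA-seq, 0 to 1 for 3'UTR-APA after either knockdown, and 0 to 1 and 0 to 2 for CDS-APA after siPaf1 and siCdc73. A lone library in a group is then assumed to vary like the others.

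Signs turned only for members that were not called in that comparison. Bub3 after siPaf1 in 3'READS was 0.015 without the block, 0.014 by DESeq2, 0.084 by library size and 0.026 over 3'-most exon sites, and -0.45 to 0.36 when 1 library was left out, with -0.05 to 0.16 in RNA-seq. The corresponding ranges in 3'READS were -1.21 to 1.67 for Kif2c after siPaf1, and -1.57 to 0.085 for Aurkb, -0.94 to 0.40 for Bub1 and -0.99 to 0.61 for Pttg1 after siCdc73. The causes of these shifts were not tested. Kif20b had at most 2.70 CPM in 3'READS.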
